A study of Mus musculus with 6 samples.

Results

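The genes described here encode the proteins of the cytosolic ribosome. They were chosen by symbol from the protein-coding genes of GENCODE M21: Rps or Rpl with a number, and Rplp0, Rplp1, Rplp2 and Rpsa, without the Rps6k kinases and without pseudogenes. The rule used no measured value. It found 85 of the 55487 genes counted, 33 of the small subunit and 52 of the large subunit.

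The cytosolic ribosome has a small subunit, which reads the mRNA, and a large subunit, which joins the amino acids. Each ribosomal protein is normally present as 1 copy per ribosome, apart from the P proteins of the stalk, so cells make the subunits in matched amounts. Ribosomal protein mRNAs are abundant in most cells and begin with a pyrimidine-rich stretch, the 5′ terminal oligopyrimidine motif, through which mTOR signalling and LARP1 control their translation. A change in translation is not visible in mRNA counts.

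The cells were tumour-associated macrophages from subcutaneous Lewis lung carcinoma, a transplantable mouse lung cancer line, in C57BL/6 mice whose tumours were taken between day 15 and day 17. The sort kept CD11b+ F4/80+ Ly6C- Ly-6G- cells and split them by surface MHC-II, high or low, with 3 libraries per label and batch numbers 1 to 3 that are also the replicate numbers. No genotype or treatment other than the tumour is given in the labels, nor the age of the mice. Separate mice are not stated for the libraries of a label, so p-values here reflect library-to-library spread, possibly technical. In sorted bulk samples, fewer cells of a type and less RNA per cell cannot be told apart.

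Libraries held 10202879 to 25473051 reads in genes. MHC class II transcripts went against the labels in all 6 libraries: the 5 genes H2-Aa, H2-Ab1, H2-Eb1, Cd74 and Ciita summed to between 61.2 and 68.5 CPM (reads of a gene scaled to a common library size) in the 3 MHC-II high libraries and to between 4440 and 8896 CPM in the 3 MHC-II low ones. All directions below are therefore those of the labels. Of 8 dendritic cell markers, 3 (Ccr7, Flt3 and Itgax) were called lower under the high label, and the 8 summed to 47.2 to 89.9 CPM in labelled high and 263 to 397 CPM in labelled low libraries. The gate genes Itgam (CD11b) and Adgre1 (F4/80) were present in all libraries, and Ly6g had no reads. With Ly6c1 and Ly6c2 added, the 5 gate genes summed to 631 to 686 CPM in labelled high libraries. In labelled low libraries they summed to 344 to 518 CPM, without overlap. The 10 macrophage markers summed to 10490 to 12911 against 7411 to 14262 CPM, with overlap. Of the markers of other cells, 8 of T and NK cells summed to 0.612 to 1.43 CPM in labelled high and 1.55 to 2.68 CPM in labelled low libraries, with Cd3d, Cd3e and Cd8a at 0, and 5 of B cells to 2.17 to 2.90 against 6.38 to 11.96 CPM. The 6 fibroblast markers summed to 71.8 to 407 against 126 to 596 CPM, and the 6 neutrophil markers to 17.3 to 28.2 against 17.0 to 35.0 CPM, both with overlap. Library 3 labelled MHC-II low stood apart: a ribosomal RNA copy took 47.3% of its gene reads, against 3.85% to 13.5% in the other 5. The same library had the steepest rise of log2 CPM with GC content over all tested genes, 0.72 per 10 percentage points, where the other 5 lay between -0.59 and 0.09. The part of these differences and of the marker levels in the ribosomal protein values was not tested.

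To show the pyrimidine stretch in genes that recur below, 30-base windows around the annotated start (20 bases before it, 10 from it on) are given from RefSeq promoters on GRCm38.p6, 5′ to 3′ on the gene's strand, with the longest run of C and T in capitals. Rpl35 and Rpl34 passed the test after correction for GC content, Rps2, Rps16, Rplp0 and Rpsa were among the 6 members leading on the side of the low label, and Rpl15 was the steadiest member.
Rpl35 (chr2:39005122-39005151, minus strand): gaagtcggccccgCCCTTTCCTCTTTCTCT
Rpl34 (chr3:130730328-130730357, minus strand): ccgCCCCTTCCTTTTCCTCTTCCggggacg
Rpl15 (chr14:18270977-18271006, minus strand): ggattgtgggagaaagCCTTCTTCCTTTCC
Rps2 (chr17:24720043-24720072, plus strand): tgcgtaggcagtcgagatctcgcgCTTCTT
Rps16 (chr7:28350669-28350698, plus strand): taaagcccgCTTCTgtcgtgacgtagcact
Rplp0 (chr5:115559447-115559476, plus strand): acgtcgTCTTCgggtttcgaggaccgcctg
Rpsa (chr9:120127746-120127775, plus strand): tggctgtgggttatttaaggacgtcaTTTC

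Within these 30-base windows the runs were 17, 20 and 14 letters long in Rpl35, Rpl34 and Rpl15. They were 4 to 6 letters long in Rps2, Rps16, Rplp0 and Rpsa. Run length did not divide the members by direction. In windows of the same size, Rpl18, with a fold change below 0, had a run of 9 letters. Rps23, with one above 0, had a run of 6, and a second annotated start of Rpl34 a run of 8. The runs of Rpl35, Rpl15, Rps2 and Rpsa end at the last base of the window, so they may be cut. Within 30 bases on each side of the start, the longest run was 18 letters in Rpl35 and 17 in Rpl15. It was 10 letters in Rpl18 and 7 in Rplp0. RefSeq promoters matched 65 of the 85 members. Within 30 bases on each side of the annotated start, 48.1% of the 77 ribosomal protein promoters held a run of at least 8 C or T letters, against 22.9% of all 32851 promoters. The letters CTTTC stood on either strand in 40.3% of them, against 14.9% of all promoters. Over the 62 tested members with a promoter, the longest run in that wider window and log2 fold change had a Spearman rho of 0.18. The rho is given as a description. These matches describe letters near annotated starts, which need not be the starts used in macrophages.

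The share of gene reads in the 85 members was 1.72%, 1.60% and 1.47% in libraries 1 to 3 labelled MHC-II high. It was 1.40%, 1.58% and 0.852% in those labelled MHC-II low. The lowest share was that of the library with 47.3% ribosomal RNA. With ribosomal RNA and mitochondrial genes taken out of the total, the shares were 2.23%, 2.28% and 2.08% in labelled high and 1.95%, 2.22% and 1.86% in labelled low libraries. The labels overlapped on both scales. Summed CPM, scaled by TMM factors, was 14073 ± 627 in labelled high and 14066 ± 1313 in labelled low libraries (SD, n = 3).

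The members differed widely in level. Mean CPM per kilobase of mRNA, taken over the length of the principal transcript and used here wherever levels of different genes are compared, had a median of 165 over the 82 tested members, with quartiles of 104 and 244. Rps12 was highest at 566 CPM per kb (497 to 630 over the 6 libraries). Rpl4, a protein of the peptide exit tunnel, followed at 530 (455 to 611). Next came Rpl23 at 456 (322 to 568), Rps2 at 416 (296 to 653) and Rps27 at 416 (322 to 539). The ranges of these 5 neighbours overlap, so their order is not fixed beyond the spread between libraries.

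At the lower end stood Rpl36al at 0.706 CPM per kb, Rps10 at 2.69, Rps27rt at 3.42, Rpl24 at 4.21 and Rpl18 at 17.5. Rpl36al, Rps10, Rpl24 and Rpl13a (18.0 CPM per kb) share over 20% of their exon length with another gene on the same strand. For Rps10 that gene is a read-through annotation with Nudt3, and for Rpl24 the shared part is 47.0%. They were the 4 members with overlaps of that size, all among the 6 lowest. The tables set reads that overlap several genes apart as ambiguous, so these 4 levels are uncertain. More generally, 41 of the 85 members share over 50% of their 50-base stretches with transcripts of other genes, up to 98.7% in Rps27. In Rps27rt the shared part was 91.1%, so its low level is uncertain too.

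**Figure D1:**
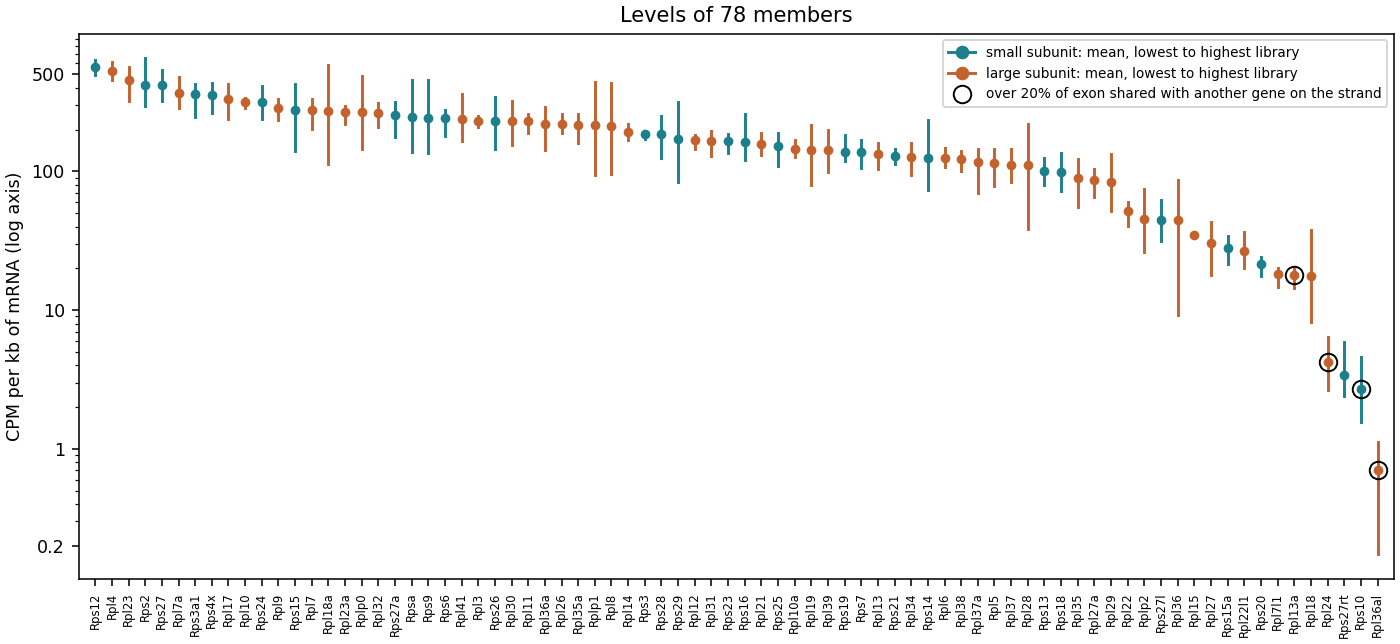
Mean level of 78 of the 82 tested members in CPM per kilobase of mRNA (log axis), ordered from high to low and coloured by subunit; lines run from the lowest to the highest of 6 libraries and rings mark members that share over 20% of their exon length with another gene on the strand. Most members lie between 100 and 500 CPM per kb, and the 4 ringed members are among the 6 lowest.

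No member passed the test between the labels. With edgeR's quasi-likelihood test and Benjamini-Hochberg adjustment over 14140 genes, 0 of 82 tested members reached an adjusted p of 0.05. Of all tested genes 63, or 0.446%, were called, with 0.0919% higher and 0.354% lower under the high label. At an unadjusted p of 0.05 there were 2 members higher and 3 lower, together 6.1% of 82 against 12.1% of all genes. DESeq2 called 0 members and 398 genes (2.81%). With the batch as a block, 0 members and 41 genes (0.29%) were called. When limma-voom weighted the libraries by quality, 37 members (45.1%) were called higher and 9 (11%) lower. Of all genes 20.4% were called higher and 22.7% lower, so a large share of all genes passed under this setting. The other 3 members, Rpl3l, Rpl39l and Rpl10l, had too few reads to be tested.

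Fold changes, given as log2 of labelled high over labelled low, lay above 0 in 54 members and below 0 in 28. Their median was 0.14, beside -0.02 over all tested genes, and 69 of 82 were under 0.5 in size. The small subunit had 18 above and 15 below 0 with a median of 0.04. The large subunit had 36 above and 13 below 0 with a median of 0.14. Within batches 1, 2 and 3 the medians over all members were 0.25, 0.09 and 0.04, and in batch 3 the small subunit's was -0.14. Scaling by total counts moved the median of all genes to 0.25 and that of the members to 0.40, with 71 members above and 11 below 0.

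**Figure D2:**
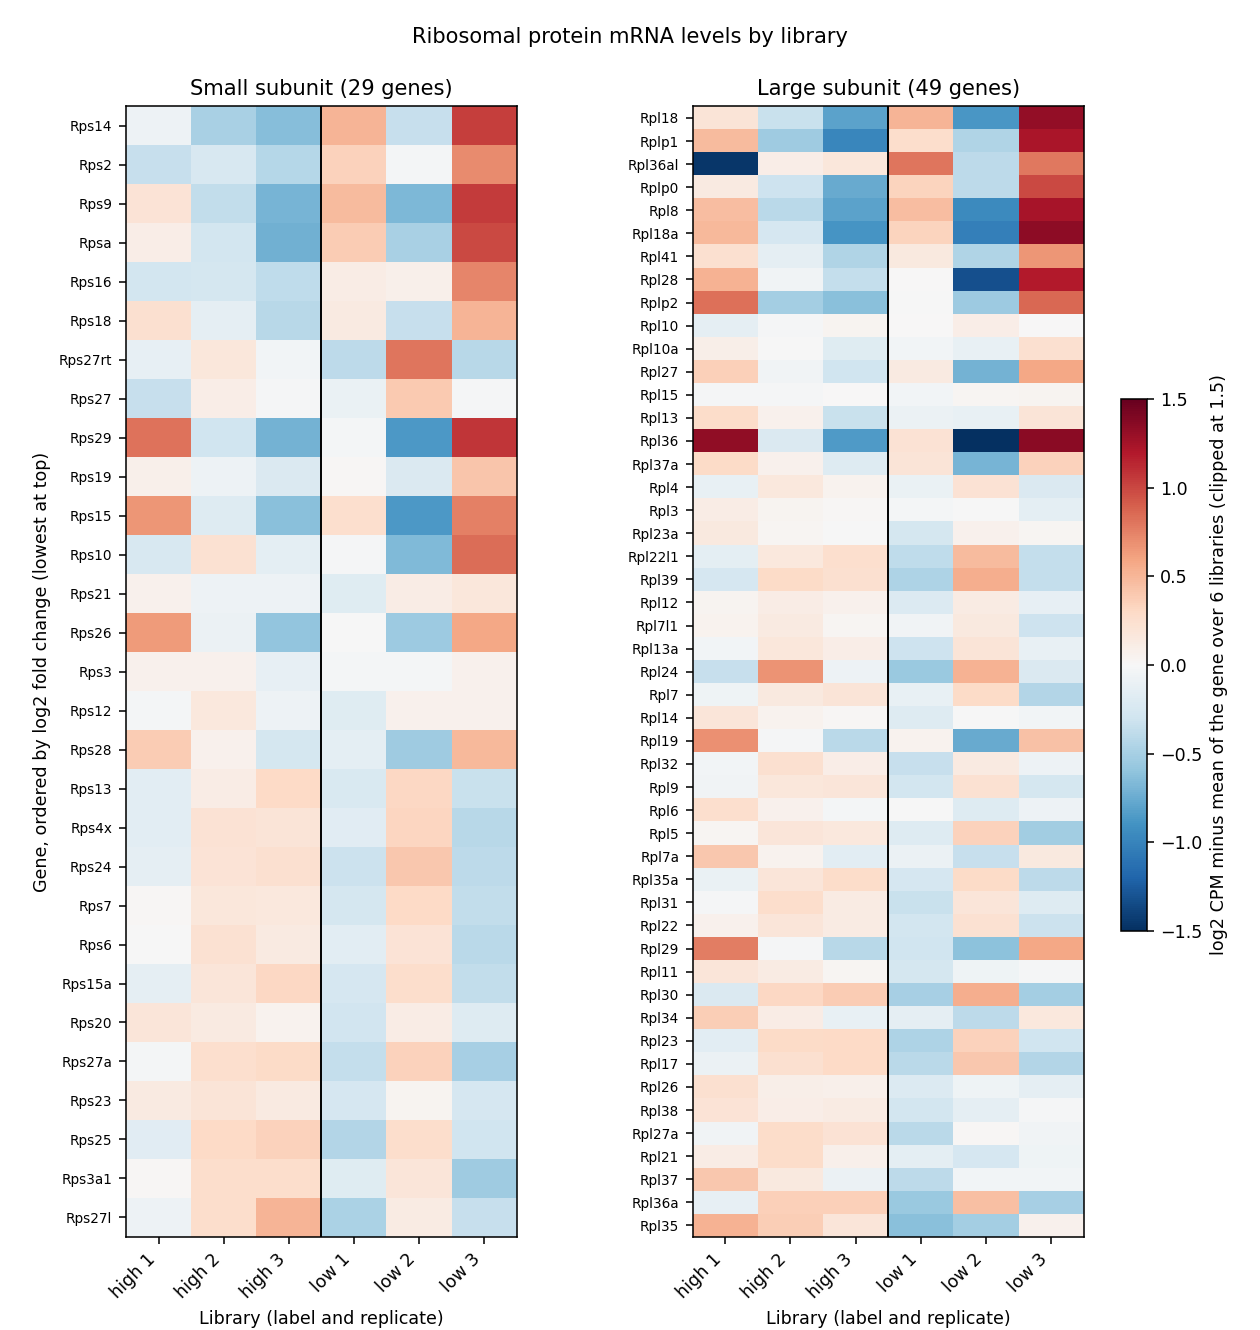
log2 CPM of each tested member minus its mean over the 6 libraries (colour, clipped at 1.5), with 29 of the 33 small subunit genes on the left, 49 large subunit genes on the right and libraries in columns by label and replicate. Library 3 labelled low is highest for 26 and lowest for 19 of all 82 tested members, and rows at the top and bottom of each panel carry the lowest and highest fold changes.

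In CPM the labels did not overlap for 9 members that were higher under the high label, among them Rps23, Rpl3, Rpl11, Rpl14, Rpl21, Rpl26, Rpl35 and Rpl38. Over all tested genes 10.5% were of that kind, close to the share of the members. For 2 members, Rps2 and Rps16, every library labelled high lay below every library labelled low, which is 2.44% beside 9.48% of all genes.

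Among small subunit members, Rps23 (chr13:90922958-90924950, plus strand, GRCm38), which lies at the decoding centre, was at 168, 175 and 167 CPM in labelled high and 129, 157 and 128 CPM in labelled low libraries. All 3 libraries of the high label lay above all 3 of the low label. Its log2 fold change of 0.30 ± 0.17 (SE) had an edgeR adjusted p of 0.462.

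Rps2 (chr17:24718116-24721929, plus strand), a protein of the mRNA entry channel, was at 345, 368 and 324 CPM in labelled high and 554, 426 and 714 CPM in labelled low libraries. These values did not overlap. Its log2 fold change was -0.71 ± 0.22, with an edgeR adjusted p of 0.298, and with the GC trend taken out it was -0.21. Rps16 (chr7:28350652-28353155, plus strand), whose tail reaches the peptidyl-tRNA site, was at 143, 145 and 134 CPM against 187, 182 and 289 CPM. Here too the labels did not overlap, at -0.64 ± 0.22 with an edgeR adjusted p of 0.347.

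Rps14, a protein of the platform, had the lowest fold change of all members before any correction for GC content. It was at 84.9, 64.2 and 57.6 CPM in labelled high and 128, 70.6 and 183 CPM in labelled low libraries. Library 1 labelled high lay above library 2 labelled low, so the labels overlapped. The log2 fold change of -0.88 ± 0.33 had an edgeR adjusted p of 0.386. With the GC trend taken out the log2 fold changes of Rps14 and Rps16 were -0.34 and -0.54. Rpsa, known also as the laminin receptor precursor, was at 474, 366 and 268 CPM against 577, 315 and 878 CPM. Its batch ratios went both ways, with log2 values of -0.28, 0.22 and -1.71 in batches 1 to 3.

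Without library 2 labelled low, 3 members were called lower under the high label, Rps2, Rps14 and Rpl18, at edgeR adjusted p values of 0.0385, 0.0301 and 0.0497. In the same fit 5.45% of all genes were called lower, against 3.66% of the members. That library was the lowest of its label for each of these 3 genes. The calls rest on leaving it out.

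In the large subunit, Rpl35 (chr2:39001580-39005624, minus strand), a protein at the exit of the peptide tunnel, had the highest fold change of all members. It was at 115, 104 and 91.5 CPM in the libraries labelled high and 52.3, 56.5 and 84.4 CPM in those labelled low, without overlap. The log2 fold change was 0.69 ± 0.22 with an edgeR adjusted p of 0.316. Of its exon length 66.2% lies antisense to another gene while the strand setting of the counting is unknown, and 95.1% of its 50-base stretches occur in other transcripts, so its counts are uncertain. Rpl21 was at 316, 353 and 307 CPM against 265, 245 and 278 CPM. Rpl38, which in mice is known for its role in translating Hox mRNAs, was at 64.1, 59.5 and 60.1 CPM against 45.7, 50.5 and 54.6 CPM. The edgeR adjusted p was 0.451 for Rpl21 and 0.469 for Rpl38.

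Rplp0, Rplp1 and Rplp2 form the stalk that recruits the translation factors with GTPase activity. Rplp0 was at 367, 268 and 198 CPM in labelled high and 422, 255 and 661 CPM in labelled low libraries. Rplp1 was at 130.3, 64.5 and 47.3 CPM against 112, 68.6 and 219 CPM, and Rplp2 at 70.2, 27.6 and 25.5 CPM against 39.3, 27.0 and 71.7 CPM. Rplp0 and Rplp1 were each highest in library 3 labelled low and lowest in library 3 labelled high, and Rplp2 was nearly as high in library 1 labelled high. Their edgeR adjusted p values were 0.451, 0.503 and 0.879. Rpl18 was at 51.4, 35.7 and 25.7 CPM against 64.1, 24.6 and 112 CPM, with overlap and an edgeR adjusted p of 0.484.

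**Figure D3:**
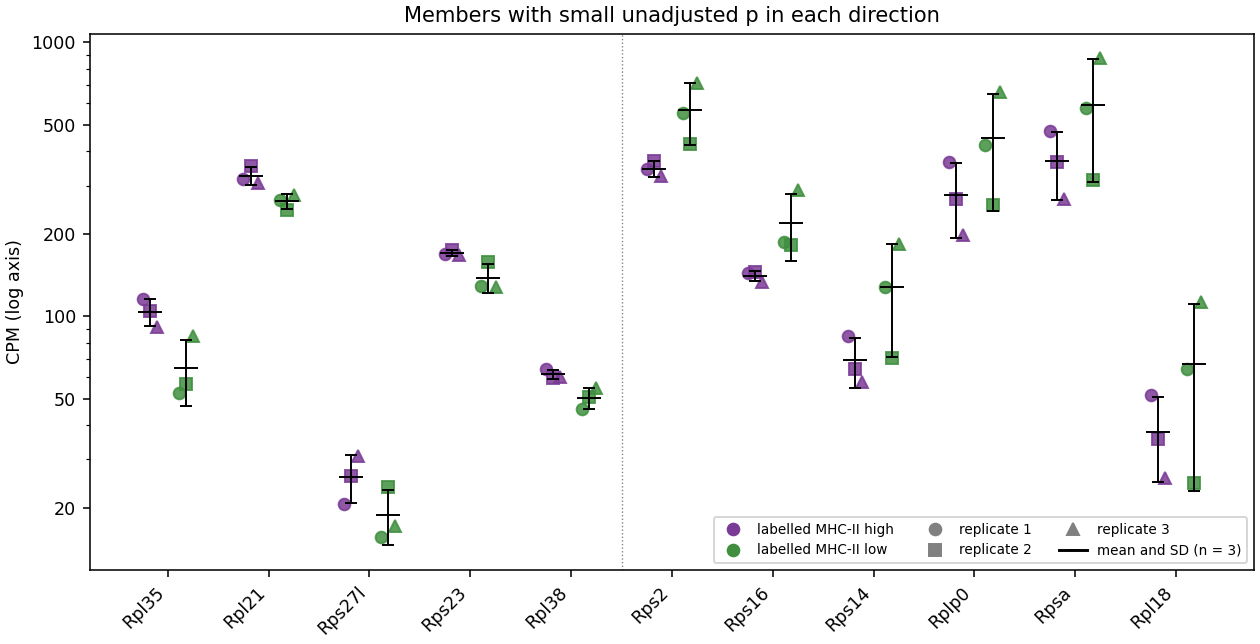
CPM (log axis) of members with small unadjusted p, 5 on the left with higher and 6 on the right with lower values under the high label, by label (colour) and replicate (marker), with bars for mean and SD (n = 3). Rpl35, Rpl21, Rps23 and Rpl38 on the left and Rps2 and Rps16 on the right show no overlap between labels; Rps27l, Rps14, Rplp0, Rpsa and Rpl18 overlap.

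Some members held almost the same level in all libraries. Rpl15 lay between 64.6 and 68.4 CPM, a ratio of 1.06 from highest to lowest. Rps3, a protein of the mRNA entry site with helicase activity, had a ratio of 1.15, Rpl10, needed for subunit joining, 1.18, and Rpl3, near the peptidyl transferase centre, 1.19. The widest spread was that of Rpl36, at 32.6, 11.1 and 7.12 CPM in labelled high and 14.9, 3.52 and 33.01 CPM in labelled low libraries, a ratio of 9.39. Its extremes lay within the low label. Rpl28 followed the same order of libraries within the low label, at 108, 42.8 and 244 CPM. These members, apart from Rpl3 and Rpl10, were named after their values were seen.

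The pattern over libraries differed with GC content. Of the 41 tested members above the median GC content of their mRNA, 22 were highest and 3 lowest in library 3 labelled low. Of the 41 at or below it, 4 were highest and 16 lowest there. Their median log2 fold changes were 0.02 and 0.19. Over the 82 members, fold change and GC content had a Spearman rho of -0.35, and the SD of log2 CPM and GC content one of 0.32, as descriptions of points that share the same 6 libraries. With each library's smooth trend over GC content taken out (GC offset), the rho of fold change and GC content was 0.22, of opposite sign. The medians of the high and low GC members were then 0.20 and 0.12. The offset was fitted on the GC content of the longest transcript, while the GC content of members is that of the principal mRNA. In Rpl29 these were 60.5% and 56.8%. Among all tested genes, library 3 labelled low was the highest for 36.9% and the lowest for 37.1%, and among the members for 31.7% and 23.2%.

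With the GC offset, 5 members were called higher under the high label and 0 lower. These were 6.1% of 82, Rpl35, Rpl34 and Rpl29 among them, beside 1.05% of all genes called higher and 1.48% called lower. The log2 fold changes and edgeR adjusted p values were 1.18 and 0.0122 for Rpl35. For Rpl34 they were 0.68 and 0.0205, and for Rpl29 0.82 and 0.0279. Adding the batch as a block kept these 5 and called 7 members in all, Rps15 among them at an edgeR adjusted p of 0.0252, with 1.63% of all genes called higher. A further correction for length called the same 5, with 1.11% of all genes called higher.

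Before that correction Rpl34 was at 100.5, 83.8 and 71.9 CPM in labelled high and 70.7, 59.0 and 86.4 CPM in labelled low libraries. Rpl29 was at 98.5, 57.3 and 43.3 CPM against 47.0, 37.7 and 86.2 CPM. In both genes the labelled high library was the higher in batches 1 and 2 and the lower in batch 3. For both the labels overlap in the uncorrected CPM values. Rps15 had a log2 fold change of -0.14 without any correction and 0.53 with the GC offset and the block.

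**Figure D4:**
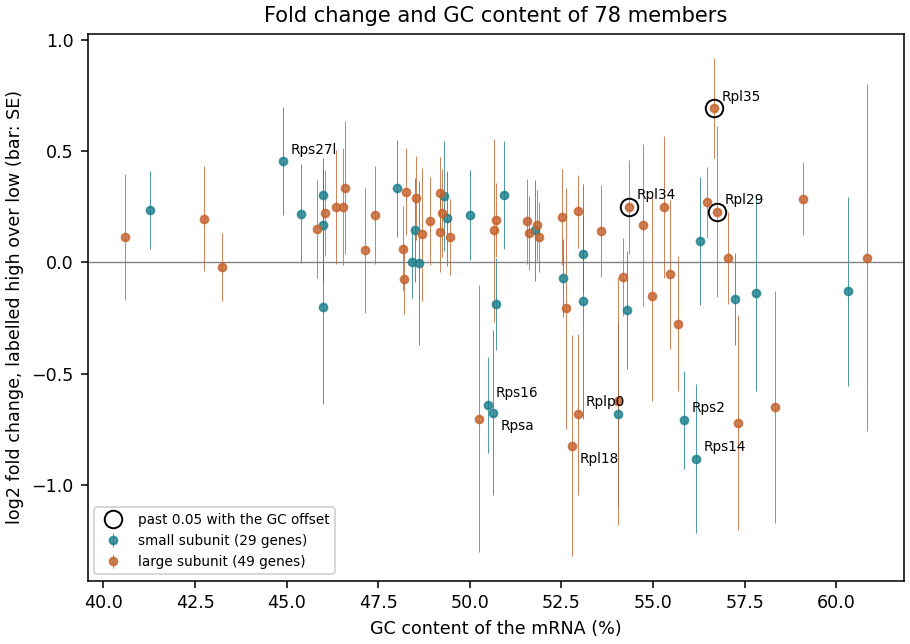
log2 fold change of labelled high over labelled low (bar: SE) against the GC content of the mRNA in percent for 78 of the 82 tested members, coloured by subunit; rings mark Rpl35, Rpl34 and Rpl29, past an adjusted p of 0.05 with the GC offset. Points below -0.5 lie at a GC content of 50% or more, and the ringed members lie between 54.3% and 56.8%. The axis shows the principal mRNA, whereas the offset was fitted on the GC content of the longest transcript.

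The ratio of small to large subunit reads does not depend on library size. It was 0.676, 0.690 and 0.684 in libraries 1 to 3 labelled high and 0.759, 0.710 and 0.756 in those labelled low. The mean was 0.683 ± 0.007 and 0.742 ± 0.027 (SD, n = 3), and no library of one label reached the range of the other. Within batches 1, 2 and 3 the difference of high minus low was -0.0838, -0.0200 and -0.0715. The direction held with each of the 85 members left out in turn, though these ratios all share the same 6 libraries. It also held per kilobase, at 0.761, 0.771 and 0.755 against 0.842, 0.780 and 0.837. The ratio was not computed with the GC trend taken out. With 3 libraries against 3 an exact two-sided permutation test cannot give a p below 0.1, and the ratio as a sum over members was not tested.

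The 6 small subunit members with the lowest fold changes took 9.91%, 8.47% and 7.52% of all member reads in labelled high and 14.5%, 8.87% and 17.3% in labelled low libraries. Without them, a choice made after their values were seen and one that raises the difference of high minus low by its construction, the ratios were 0.510, 0.547 and 0.557 against 0.504, 0.558 and 0.452. The labels then overlapped, and nothing about the source of the difference follows from this.

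**Figure D5:**
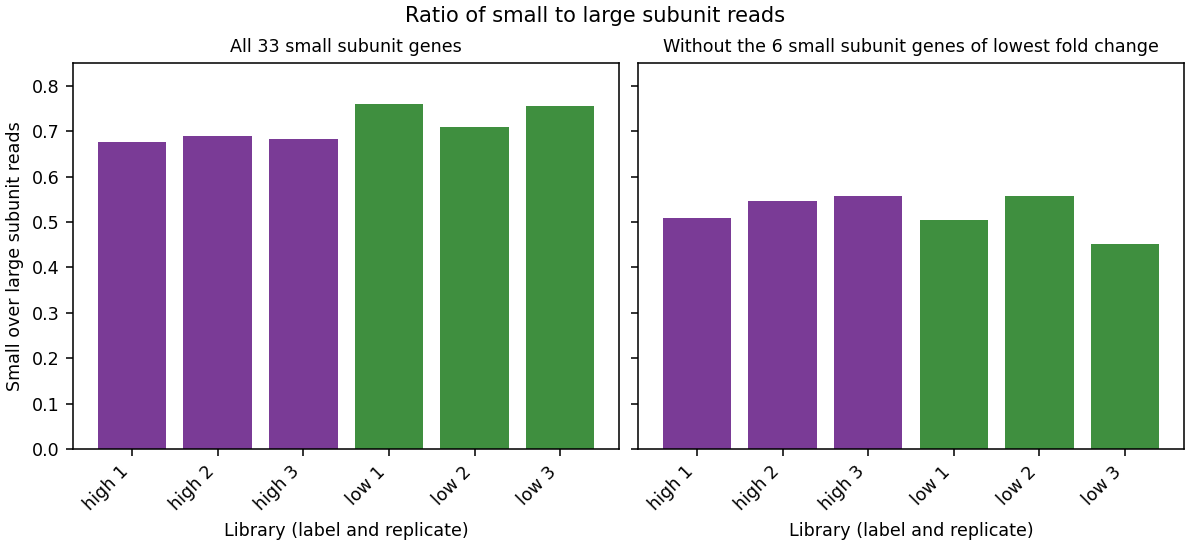
Small over large subunit reads in each library (bars from 0), coloured by label, with all 33 small subunit genes on the left and without 6 of them on the right. On the left all labelled high libraries (0.676 to 0.690) lie below all labelled low libraries (0.710 to 0.759); on the right the labels overlap.

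Several ribosomal proteins have a paralog, and some of these paralogs can take the place of the parent in the ribosome. Rps27l, a paralog of Rps27 known as a p53 target, was at 20.7, 26.1 and 30.9 CPM in labelled high and 15.7, 23.7 and 17.1 CPM in labelled low libraries. Per kilobase it made up 11.4%, 10.7% and 13.2% of the sum of Rps27l and Rps27 in labelled high and 7.60%, 8.10% and 7.80% in labelled low libraries. These shares did not overlap between labels. Neither gene was called, with edgeR adjusted p values of 0.452 for Rps27l and 0.649 for Rps27. The log2 fold change of Rps27l was 0.45, against 0.23 with the GC offset and 0.09 with the GC and length offset. The shares were not computed with these offsets, and an exact test of 3 shares against 3 cannot give less than 0.1. Of the 50-base stretches of Rps27, 98.7% occur in other transcripts, so its part of the share is uncertain.

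Rpl22l1 made up between 30.8% and 38.0% of Rpl22l1 and Rpl22 per kilobase, with overlap between the labels. Rpl7l1 made up between 5.63% and 6.78% of its pair with Rpl7. Rpl36al stayed at or under 0.781% of its pair with Rpl36a, and Rps27rt at or under 1.08% of its pair with Rps27. Of the 50-base stretches of Rps27rt 91.1% occur in other transcripts, and of those of Rpl22l1 65.6%, so their shares are uncertain. Rpl3l, the striated muscle paralog of Rpl3, had 24 reads over all libraries, Rpl39l, known from testis, 16 reads, and Rpl10l, the testis paralog of Rpl10, none. X-linked Rps4x was at 304, 396 and 389 CPM in labelled high and 302, 426 and 255 CPM in labelled low libraries. Rps27a, which is made as a fusion with ubiquitin, was at 193, 233 and 240 CPM against 153, 248 and 139 CPM, with overlap and an edgeR adjusted p of 0.564.

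The other genes of the pathway were taken from fixed lists, and none was called, in the main comparison or with the GC offset. Fau and Rack1, which encode further small subunit proteins, were at 110 ± 31 against 151 ± 55 CPM and at 319 ± 47 against 463 ± 158 CPM (SD, n = 3). Their edgeR adjusted p values were 0.511 and 0.444. Of 12 elongation and termination factors, 7 lay above and 5 below 0, with a median of 0.12. Among them Eif5a, Eef1g and Eef2 had the smallest p, with log2 fold changes of -0.54, -0.42 and -0.77. Eef2, the translocase, spanned 655 to 2543 CPM, highest in library 3 labelled low. Of 38 initiation factors, 24 lay above and 14 below 0, with a median of 0.08. Eif1b was higher without overlap, at 24.2 ± 0.9 against 17.3 ± 0.6 CPM and an edgeR adjusted p of 0.374. Eif6, which keeps the subunits apart, was lower under the high label in all libraries at 51.0, 52.1 and 46.7 CPM against 78.7, 63.9 and 113 CPM. Its edgeR adjusted p was 0.280.

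Of 46 ribosome assembly genes, 27 lay above and 19 below 0, with a median of 0.08. Rrn3, an RNA polymerase I factor, was at 47.8 ± 2.5 against 34.8 ± 5.8 CPM with an edgeR adjusted p of 0.404. The 17 genes that control translation of terminal oligopyrimidine mRNAs had a median of -0.34, which was -0.01 with the GC offset. In that list Larp1 was at 158, 149 and 144 CPM in labelled high and 222, 179 and 338 CPM in labelled low libraries, without overlap, at an edgeR adjusted p of 0.359. Eif4ebp2, an mTOR-regulated inhibitor of translation initiation, had a log2 fold change of -1.05 with an edgeR adjusted p of 0.311. The 15 ribosome quality control genes had a median of 0.08. Of 77 tested proteins of the mitochondrial ribosome, 14 were higher without overlap and 2 lower, which is 18.2% and 2.60% beside the 10.5% and 9.48% given above for all genes. Mrpl18 led them, at 16.9, 17.9 and 22.1 CPM against 10.2, 12.9 and 10.4 CPM, with an edgeR adjusted p of 0.242.

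The genes whose log2 CPM followed the summed member level most closely over the 6 libraries were Prpsap1 (Pearson r 0.96), Gtf3a (0.96), Mapk1ip1 (0.94), Eef2k (0.94) and Aimp2 (0.94), out of 7460 protein-coding genes. With 6 libraries and so many genes, these are descriptions only.

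In the genome the members lie on 19 chromosomes, 14 of them on chromosome 7 and 4 on X. Within 30 members lie 58 small nucleolar RNA genes, which are processed from introns. The precision of the comparison was a median SE of 0.22 log2 units per member, between 0.15 and 0.78. A tested member had a median of 2342 reads in a library.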

How the data were processed

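RNA depleted of ribosomal RNA was sequenced from stranded libraries, per the labels' protocols. Each deposited table holds the authors' raw count of reads for 55487 Ensembl genes of 1 library, with 5 summary lines. Tools and build named without versions in the submitters' processing notes are STAR, HTSeq, Trimmomatic, FastQC, DESeq2 and GRCm38. The annotation release and strand setting of the counting were not given in the sources used here. Left out of totals and tests were reads on no feature (35.2% to 49.4% of a library), multiply aligned reads (7.6% to 17.4%) and ambiguous reads (0.324% to 0.864%). GENCODE M21 gave symbols and coordinates for 55227 genes.

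In R 4.3.3, edgeR 4.0.16 (TMM, default filter on low counts, quasi-likelihood test, label as the only term, Benjamini-Hochberg adjusted p of 0.05 over all 14140 tested genes) was fitted to all 6 libraries and checked on simulated data. CPM are counts over TMM-scaled library sizes. SEs were taken from the F statistic, as fold change over its square root. The GC offset removed each library's local regression of log2 CPM on GC content of the longest transcript (span 0.4). Other settings used DESeq2 1.42.0 and limma 3.58.1. Batch numbers in the labels pair the libraries; deviations of same-batch libraries had r of 0.17, 0.37 and -0.21 over all genes, and those of different batches up to 0.46.

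Members and gene lists were chosen with earlier results of these data known. Named were the 6 members with the smallest p in each direction, the 5 highest and 5 lowest per kb, paralogs with their parents, the stalk genes, Rpsa, Rps27a, members called with the GC offset, up to 3 genes per pathway list and the 5 genes most like the summed level; any other gene was named after its values were seen. Single values of a few genes under this rule are not reported here, and 4 members are left out of the plots of single members; counts and medians cover all. Designed as CPM per kb of exon, levels were computed per kb of the principal mRNA.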

Additional observations from a re-analysis of the deposited data

How the results depend on the processing

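Of the members, 5 were called with the GC offset, 7 with the GC offset and the replicate block, 5 with the GC and length offset and 46 (37 higher, 9 lower) with limma-voom with quality weights. Leaving out each library in turn gave 0 to 3 members and 8 to 1030 genes of all, the highest counts without library 2 labelled low. All genes called were 63 in the comparison as reported, 398 with DESeq2, 6090 with quality weights, 549 with no filter, 41 with the replicate block that pairs the batches, 357 with the GC offset, 594 with the GC offset and block, 373 with the GC and length offset and 28 without batch 3, a setting added after the data had been seen. The block changed no call of a member. Total counts gave medians of 0.40, 0.37 and 0.42 for all, small and large subunit members, and quality weights gave 0.25, 0.20 and 0.25. Over the leave-one-out fits these medians ranged from 0.08 to 0.21, from -0.01 to 0.11 and from 0.11 to 0.24. The difference in subunit ratio ranged from -0.0743 to -0.0496 when libraries were left out and was 0.0332 without the 6 small subunit genes. Rpl29, at 0.23 as reported, ranged from -0.14 without library 1 labelled high to 0.65 without library 3 labelled low. The cause was not tested. Few reads per library limit Rpl36al, Rps27rt, Rps10 and Rpl24, and ribosomal RNA left the fewest reads to library 3 labelled low.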

Other observations

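The annotation holds 307 ribosomal protein pseudogenes, and their reads came to between 0.678% and 0.878% of the reads of the 85 members in a library. This share overlapped between the labels, at 0.838%, 0.776% and 0.771% for labelled high against 0.678%, 0.878% and 0.825% for labelled low libraries. Deviations of the members from the label means had a Pearson r of 0.57 and 0.63 between the libraries of batches 1 and 2 and of -0.88 between those of batch 3. Some pairs from different batches had a higher r, 0.857 between library 1 labelled high and library 3 labelled low and 0.865 between library 3 labelled high and library 2 labelled low. These are descriptions over 82 genes. Rps9, Rpsa and Rplp0 were the 3 members whose CPM rose through all 6 libraries in the order of the libraries' GC trend. They make up 3.66% of the members, beside 4.02% of all tested genes.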
